A study of Macaca mulatta with 23 samples.

Results

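The genes that write, erase and read DNA methylation were themselves examined for methylation in amygdala tissue, from its central nucleus, of rhesus monkeys. The set holds the DNA methyltransferases DNMT1, DNMT3A and DNMT3B, the dioxygenases TET1, TET2 and TET3, the methyl-CpG binding domain proteins MBD1, MBD2 and MBD3, and the hemimethylation reader UHRF1. A position belonged to the set if its coordinate on the human build hg19 lay inside the window given for 1 of these 10 genes. The windows run from chr19:10241000-10309000 for DNMT1, chr2:25452000-25569000 for DNMT3A and chr20:31347000-31400000 for DNMT3B to chr10:70317000-70458000 for TET1, chr4:106064000-106204000 for TET2 and chr2:74227000-74339000 for TET3. Those of the readers are chr18:47790000-47811000 for MBD1, chr18:51677000-51755000 for MBD2, chr19:1573000-1596000 for MBD3 and chr19:4906000-4966000 for UHRF1. Together they hold 506 of the 444312 positions measured. Exons, introns and UTRs are not assigned, because an hg19 annotation was not used here. Whether a gene reads forward or backward on the human chromosome is textbook background, and distances are given from the window edge on the side where the gene starts.

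The study profiled genomic DNA of 23 young monkeys (Macaca mulatta), untreated as far as the labels say, by reduced representation bisulfite sequencing, 1 library per monkey and 1 hemisphere per monkey (11 left, 12 right). Each monkey had an anxious temperament score, treated as a continuous trait, from -1.48 to 1.43, and an age from 1.1 to 2.13 years. The tissue holds neurons and glia together, so a level is an average over cell types, and a different mix of cells cannot be told apart from a different level within a cell type. Monkeys are named by hemisphere and a running number. Left 1 was the oldest at 2.13 years, with the next monkey at 1.64. Read depth is unknown. Missing values made up 47.4% of the 506 positions in left 3 and 27.1% in right 9, with a median over libraries of 2.77%. At member positions of intermediate level (mean 20% to 80%), 45.2% of the values of right 9 were exactly 0 or 100%, where the other libraries had at most 9.09%.

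DNMT3A and DNMT3B place methyl groups on unmethylated CpGs, and DNMT1, guided to newly replicated DNA by UHRF1, copies the pattern to the daughter strand. TET enzymes oxidise 5-methylcytosine, a first step in its removal, and bisulfite sequencing cannot separate 5-methylcytosine from the 5-hydroxymethylcytosine they form, which is abundant in brain. MBD1 and MBD2 bind methylated CpGs and recruit repressors, whereas mammalian MBD3, a subunit of the NuRD complex, binds methylated DNA poorly. CpG islands at gene starts are usually unmethylated and gene bodies usually methylated.

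The set showed that pattern in part. Of the 206 positions within 6 kb of the start-side window edge, 190 (92.2%) had a mean level under 20%, and their median was 1%. Of the 300 positions farther in, 159 (53%) had a mean over 80% and 92 (30.7%) a mean under 20%. The median of the 300 was 83.7%. Over the whole set 55.7% of positions lay under 20%, 11.3% between 20% and 80% and 33% over 80%, against 60.9%, 18% and 21.1% of all positions measured. DNMT1 averaged 1.05% ± 0.419 (SD, n = 23) on the start side and 75.8% ± 0.884 (SD, n = 23) elsewhere. DNMT3A averaged 1% ± 0.599 (SD, n = 23) and 44.6% ± 1.32 (SD, n = 23), and UHRF1 1.22% ± 0.515 (SD, n = 23) and 59.3% ± 2.43 (SD, n = 23). The start side was lower in 23 of 23 monkeys in each of these genes and in 20 of 20 in TET1. TET1 averaged 8.75% ± 2.95 (SD, n = 20) on the start side and 48.1% ± 2.16 (SD, n = 23) elsewhere. No other gene of the set had positions in both zones. Because the 6 kb zone was set after the levels were seen, these counts do not test the pattern.

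**Figure D1:**
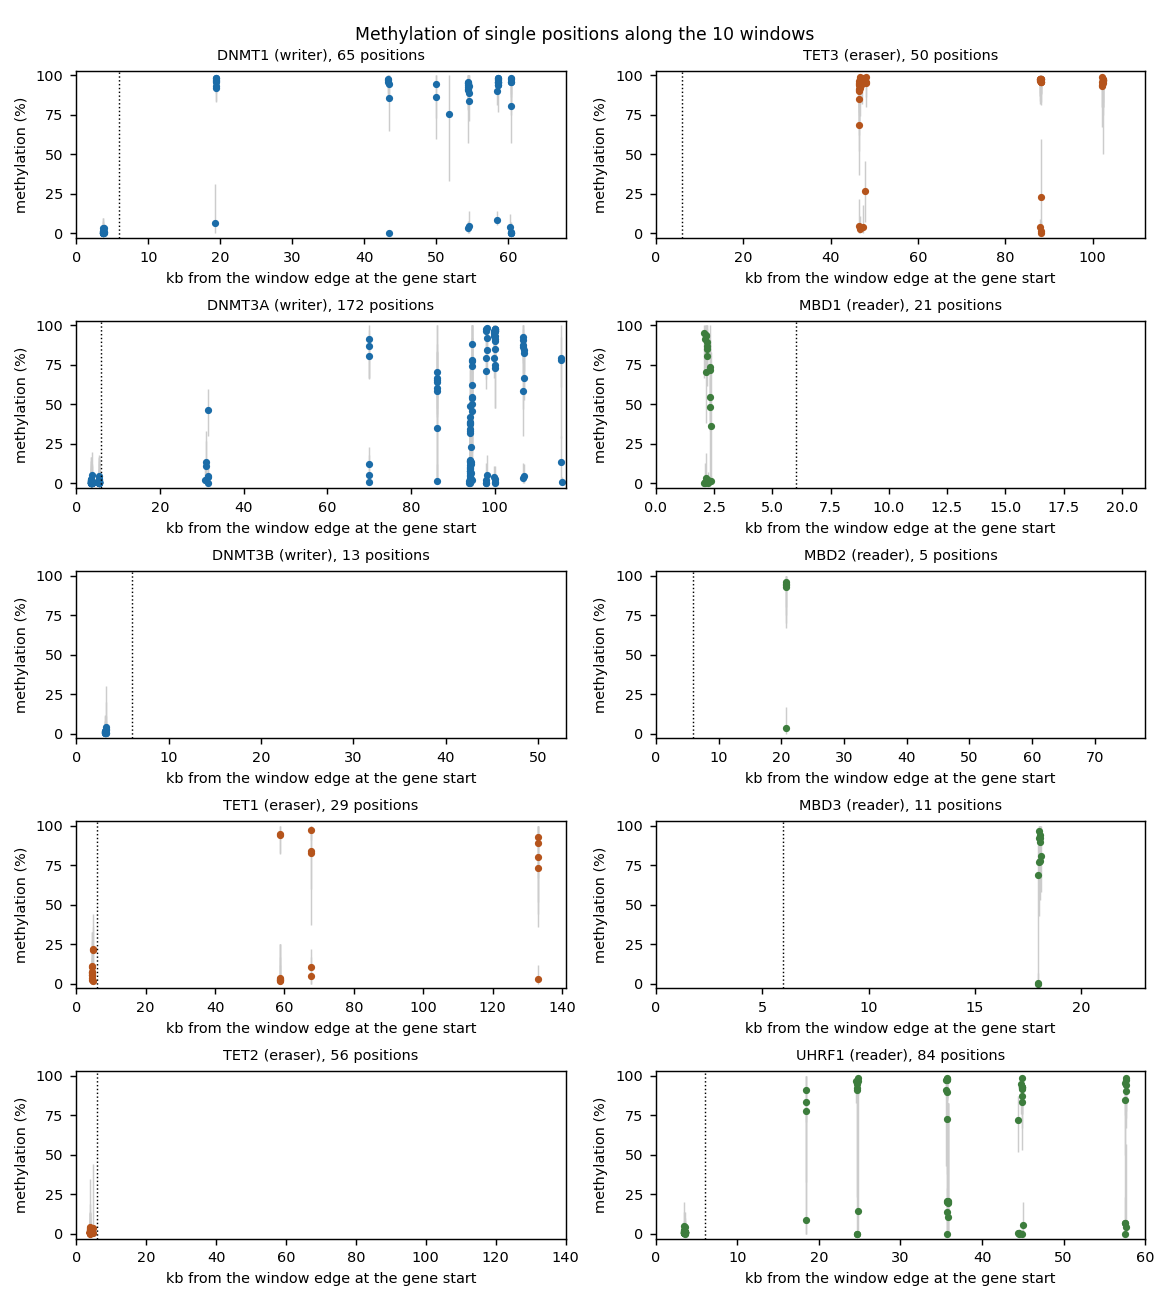
Methylation in percent of each of the 506 positions (points: mean of the monkeys; grey bars: lowest to highest monkey) against distance in kb from the window edge at the gene start, 1 panel per gene. The dotted line marks 6 kb. Points left of it sit near 0 in DNMT1, DNMT3A, DNMT3B, TET2 and UHRF1, whereas those of MBD1 reach over 80%, and TET3, MBD2 and MBD3 have none there.

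Neighbouring positions were joined into runs, stretches of 3 or more positions no farther than 200 bp from the next. The windows held 38 of the 32706 runs of the table. A run's level in a monkey is the unweighted mean over its positions with a value. Of the 38 runs, 10 (26.3%) averaged under 20%, 23 (60.5%) between 20% and 80% and 5 (13.2%) over 80%. Over all runs of the table these shares were 34.5%, 57.6% and 7.87%.

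Among the writers, DNMT1 had an unmethylated run of 14 positions at chr19:10305198-10305318. Its level was 0.357% in the lowest monkey, 0.929% in the median one and 1.93% in the highest. The other 5 runs of DNMT1 lay 19.3 kb to 60.3 kb from the start-side edge. Of these, the run of 12 positions at chr19:10250360-10250471 averaged 88.07% ± 1.33 (SD, n = 23) and the run of 12 at chr19:10254460-10254590 77.51% ± 1.27 (SD, n = 23). The run of 10 positions at chr19:10248551-10248665 averaged 47.07% ± 1.62 (SD, n = 23), yet none of its positions stood near that level: 5 had means under 5% and 5 over 80%. A run mean in these genes therefore often counts low and high positions rather than a shared intermediate level.

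DNMT3A, the enzyme of de novo methylation in neurons, was the best covered gene with 172 positions, 170 of them in 11 runs. Its start side held 60 unmethylated positions in 2 runs. The run at chr2:25565257-25565498 (34 positions) ran from 0.167% to 2.47% over monkeys with a median of 0.706%, and that at chr2:25563480-25563581 (26 positions) from 0 to 2.62% with a median of 0.885%. Runs at 30.9 kb and 31.5 kb were still low, at 7.306% ± 5.15 (SD, n = 18) and 13.98% ± 2.42 (SD, n = 22). Far from the start side, the run of 22 positions at chr2:25468900-25469086 averaged 76.55% ± 4.05 (SD, n = 23). Of the whole set, 57 positions had a mean between 20% and 80%, and 34 of them lay in DNMT3A. These were 19.8% of its 172 positions, against 18% of all positions measured. The share was 28.6% in MBD1 and 27.3% in MBD3.

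The DNMT3A run with the most positions, 41 at chr2:25474349-25474940, 94.1 kb from the start-side edge, stepped down within 592 bp. DNMT3A is known to have an internal promoter for a shorter isoform, whose position was not looked up here. The first 11 positions, up to 25474515, averaged 55.67% ± 11.1 (SD, n = 21). The first and the last of these stood at 2.26% and 2.68%, and the others between 45.85% and 88.58%. The highest monkey over this part, right 12 at 89.6%, had values there only at 25474423 and 25474432, both 100%. The next 4 positions averaged 13.86% ± 5.25 (SD, n = 19) and the last 26 averaged 17.32% ± 2.42 (SD, n = 23). Beyond the run, 25475208 and 25475211 stood at 0.118% and 1.53% (n = 17).

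Within the last stretch the levels differed between CpGs a few bases apart, while adjacent bases, which read both strands of the same CpG, mostly stood close to each other. The pair 25474826 and 25474827 stood at 38.17% ± 9.81 and 38.65% ± 9.86 (SD, n = 23), and the pair 25474884 and 25474885 at 37.39% ± 6.29 and 41.91% ± 8.48 (SD, n = 23). Between them the pair 25474848 and 25474849 stood at 1.74% ± 1.54 and 2.52% ± 1.73 (SD, n = 23), with a highest monkey of 6% and 5%. At 25474827 the lowest monkey had 13%, so the levels of that position and of 25474849 did not overlap over the 23 monkeys.

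**Figure D2:**
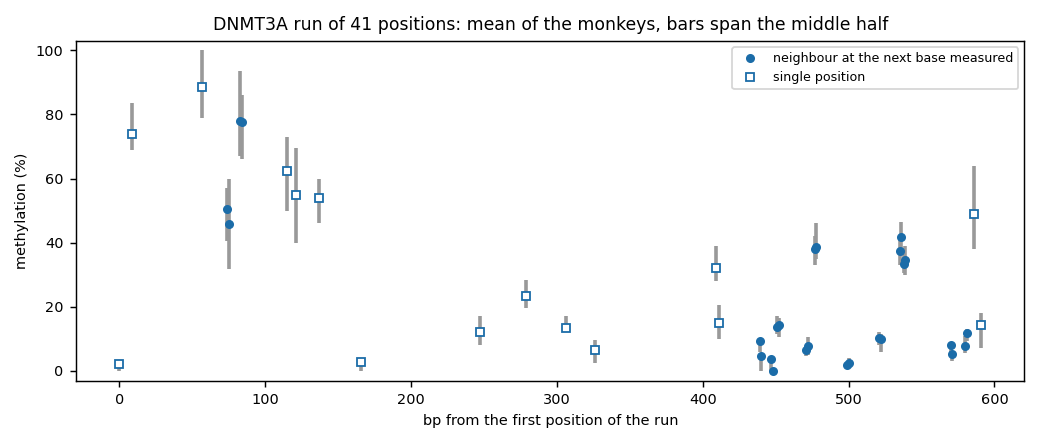
Methylation in percent at the 41 positions of the DNMT3A run, by distance in bp from its first position. Symbols are means over monkeys, filled where the adjacent base was measured too, and bars span the interquartile range over monkeys. Levels reach 88.58% among the first 11 positions and stay at or below 49% in the rest, and adjacent bases stand close to each other.

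DNMT3B, a de novo enzyme most active in early development, was covered only by 13 positions at chr20:31350092-31350213, all on the start side. The run averaged 1.11% ± 1.24 (SD, n = 20), from 0 to 3.46% with a median of 0.769%. None of the 13 positions had a mean above 4.18%.

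Among the erasers, TET2 had 56 positions, all under 20%. The run of 54 at chr4:106067832-106067962 ran from 0.259% to 2.83% with a median of 0.833%. TET1 had a start-side run of 12 positions at chr10:70321554-70321747 that was low but not at 0: 2.83% in the lowest monkey, 9.17% in the median one and 14.6% in the highest. Its positions 70321716 and 70321742 had the highest means there, 21.4% ± 8.9 and 22.3% ± 9.8 (SD, n = 20). The lowest monkey, right 6, stood at the highest level of the TET2 run, and every other monkey with a value (n = 20 in all) lay above it. The other TET1 runs, listed by distance from the start side, averaged 28.5% ± 3.11 (SD, n = 21), 55.9% ± 3.65 (SD, n = 23) and 67.62% ± 5.49 (SD, n = 23). Each mixed low and high positions. Of their 7, 5 and 5 positions, 5, 2 and 1 had means under 20% and 2, 3 and 3 over 80%. The order of the means is therefore no shared gradient of the positions.

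TET3, the family member most abundant in adult neurons, had no position on the start side. Its 50 positions lay 46.5 kb or more inside the window and averaged 81.2% ± 1.21 (SD, n = 23). Its run of 18 positions at chr2:74273508-74273700 averaged 82.67% ± 3.39 (SD, n = 20), and the one with the widest spread, 4 positions at chr2:74274979-74275179, 77.82% ± 5.2 (SD, n = 20). The run of 10 at chr2:74329239-74329293 was the most methylated of the 38 runs, at 96.42% ± 2.7 (SD, n = 21), with 90% in the lowest monkey, 96.5% in the median one and 100% in the highest.

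Among the readers, UHRF1 had 30 start-side positions at chr19:4909453-4909560, from 0.433% to 2.53% over monkeys with a median of 1.07%. Its other 54 positions fell in 6 runs with means from 18.22% to 75.7%. MBD2 and MBD3 were covered away from the start side only. The 5 positions of MBD2 at chr18:51734174-51734224 averaged 76.26% ± 2.92 (SD, n = 21), and the 11 of MBD3 at chr19:1577915-1578040 averaged 69.98% ± 2.65 (SD, n = 21).

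MBD1 was the exception to the low start side. Its only run lay 2.08 kb from the start-side edge, nearer than the other start-side runs, at 3.09 kb to 5.42 kb. Where the genes start inside the windows was not looked up, so whether this run lies at the start of MBD1 was not tested. The run, 21 positions at chr18:47808643-47808915, stood at 43.5% in the lowest monkey, 51.48% in the median one and 57.75% in the highest. The lowest, right 3, had values at 12 of the 21 positions and the highest, right 1, at 16. With each position centred on its own mean the range was 46.86% to 55.19%. All 8 start-side positions with a mean over 80% belonged to MBD1, such as 47808841 at 93.95% ± 3.49 (SD, n = 20). Low and high positions stood close together: 47808872 and 47808915 were at 0 in every monkey with a value (n = 19 and 18), while 47808896 and 47808911 between them stood at 91.53% ± 10.9 and 95.47% ± 9.59 (SD, n = 19). Whether the macaque sequence has a CpG at these human coordinates was not tested.

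**Figure D3:**
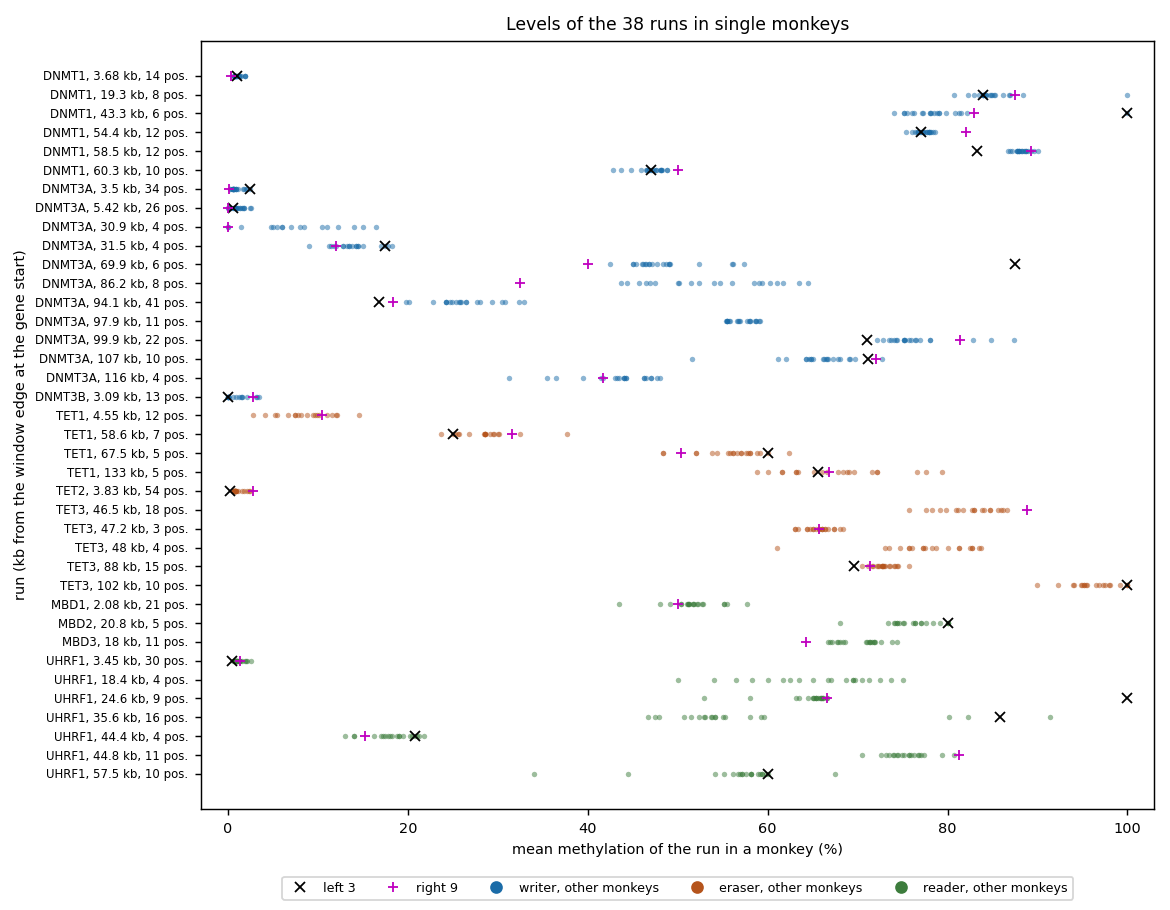
Mean methylation in percent of the 38 runs in each monkey (points), by gene and by kb from the window edge at the gene start. The crosses of left 3 and right 9, the libraries with the most missing values among these positions, often stand at an end of a row. Start-side runs sit near 0 except those of TET1 and MBD1.

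Part of the low positions inside methylated stretches were tied to the ends of runs. In the windows 130 pairs of adjacent bases could be compared, and their median difference was 1.31 points, against 1.2 points over 97492 pairs of the table. The levels differed by more than 20 points in 16 of the 130 pairs (12.3%, against 11% of all pairs). Of the 25 pairs at the end of a run 12 (48%) differed by that much, and of the 105 inside a run 4 (3.81%). Over the table these shares were 35.5% and 5.58%. In all 12 member end pairs the lower base was the one that faced the inside of the run. The same held for 6185 of the 6230 such end pairs of the table.

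In DNMT1, the run from 10254460 to 10254590 began with 93.27% ± 2.47 (SD, n = 22) and 4.48% ± 2.74 (SD, n = 23) at adjacent bases and ended with 3.55% ± 1.97 (SD, n = 22) and 95% ± 2.37 (SD, n = 23). The DNMT3A run at 25468900 began with 96.86% and 3% and the TET3 run at 74315008 with 96.87% and 3.96%. MspI leaves overhangs that are filled in with unmethylated cytosines during end repair, and reads that run to a fragment end can carry them. Their part in these values was not tested. Inside runs, MBD1 held the pair 47808848 and 47808849 at 3.43% ± 4.28 and 70.52% ± 13.9 (SD, n = 21). Counting paired and unpaired positions, 24 of the 180 member positions in runs with a median of 80% or more (13.3%) had a mean under 5%, against 10.6% of such positions in the table.

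**Figure D4:**
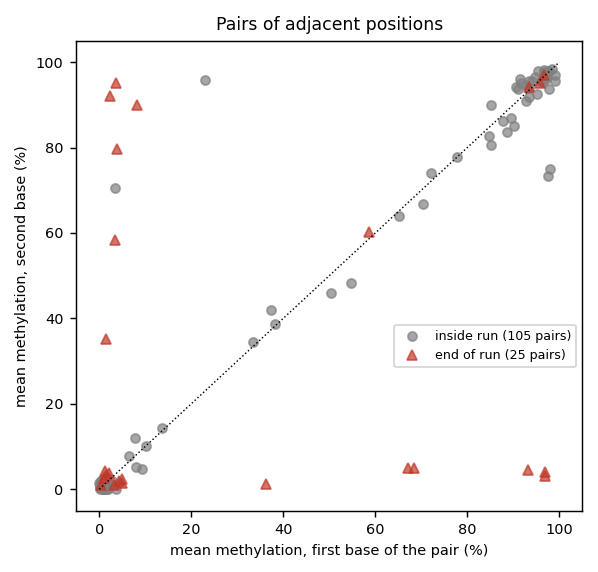
Mean methylation in percent at the second base of each of the 130 adjacent pairs against that at the first base. Triangles are pairs at the end of a run and circles pairs inside a run; the dotted line marks equal levels. Of the 16 pairs more than 20 points apart, 12 lie at run ends.

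At the median, levels of the set varied between monkeys about as much as those of all positions, while wide spreads were less frequent. The SD over monkeys had a median of 3.55 points over the 506 positions (3.49 over all positions), and it was above 10 points at 13% of them, against 21.8% of all positions. By gene that share ran from 0 of the 13 positions of DNMT3B, 0 of the 56 of TET2 and 0 of the 5 of MBD2 to 22.6% in UHRF1, 28.6% in MBD1 and 36.4% in MBD3. Several wide plain means came with missing positions. The UHRF1 run of 16 positions at chr19:4941602-4941810 had an SD of 13.3 points, and left 4, the highest at 91.43%, had values at only 7 of the 16. With each position centred on its own mean the SD was 7.12. In the DNMT3A run at 25498934 it was 9.21 and 3.6 points, with left 3 at 87.5% from 2 of 6 positions, and in the UHRF1 run at 4930607 it was 8.21 and 2.8. The DNMT1 run with the widest spread, 6 positions at chr19:10265554-10265690, had 6.68 and 2.61, with left 3 and right 12 at 100% from 2 positions each.

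A stretch of this UHRF1 run, picked after its values were seen, moved as a block. At the 5 positions from 4941748 to 4941794 the values of a monkey lay within a median of 2.5 points of each other, 9 at most (n = 18). Their mean was 18.5% in the median monkey, 33% in the second highest and 83% in right 4, which had the lowest temperament score. Right 4 lacked 19.6% of all member values.

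The study's central question was whether methylation follows anxious temperament, with age as the covariate. A position was tested if at least 20 monkeys had a value and their range was 10 points or more, which held for 231 of the 506. With limma 0 of these 231 reached an adjusted p under 0.05, as did 0% of the 192151 positions tested in the table, and the smallest adjusted p in the set was 1. Without adjustment, at a p under 0.05, there were 16 of 231 (6.93%), 7 with a positive slope and 9 with a negative one, against 3.12% of all tested positions. Positions of a run share fragments, so they are not independent, and the difference between these shares was not tested. None of the 13 positions of DNMT3B met both conditions for the test. The 16 were 4 in DNMT1, 2 in DNMT3A, 4 in TET1, 3 in TET3, 1 in MBD1 and 2 in UHRF1.

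The smallest p belonged to TET3 at 74273568, where the level was 80% in the lowest monkey, 96% in the median one and 100% in the highest. The lowest was left 11, the monkey with the highest score. Per score unit the level changed by -5.12 ± 1.32 points (SE, n = 20; limma p = 0.000849, adjusted p = 1). Without left 11 it was -3.54 (p = 0.0101). The nearest tested neighbour, 17 bp away, had a slope of -3.48 ± 2.95 (SE; limma p = 0.252). The adjacent base 74273567, which reads the other strand of the CpG, had values in 19 monkeys and was not tested. There left 11 stood at 86% and the lowest monkey, left 8, at 71%.

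A second TET3 position, 74274383, had 0 in the lowest monkey, 4% in the median one and 18% in the highest, right 4, which had the lowest score. The second highest had 7%. The slope came to -2.99 ± 0.928 points per score unit (SE; n = 22), at a limma adjusted p of 1. DNMT3A at 25563581, on the unmethylated start side, ran from 0 to 14% with a slope of 2.95 ± 1.01 (SE, n = 21), and left 11 was the highest. DNMT1 at 10248551 ran from 57% to 100% with a slope of 8.16 ± 3.02 (SE, n = 22), and right 4 was the lowest. TET1 at 70375650 was at 0 in 16 of 21 monkeys and at 25% in left 11, with a slope of 4.07 ± 1.51 (SE, n = 21), and 1.29 without left 11. At each of these 5 positions the monkey at 1 end of the score held an extreme level.

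Of the 38 runs, 30 were tested (at least 20 monkeys and a range of 5 points). The 8 left out were the 6 start-side runs with means under 5% and 2 runs of DNMT3A. Of the 30, 0 passed with limma (0% of 21253 in the table), and 1 had an unadjusted p under 0.05 (3.33%, against 3.2% of all tested runs). It was the TET1 run of 5 positions at chr10:70450087-70450181. Its level was 58.8% in left 11, 66.8% in the median monkey and 79.4% in right 4. Its slope on the score was -3.53 ± 1.39 points (SE, n = 23; limma p = 0.0189, adjusted p = 1), -2.55 without right 4 (p = 0.11) and -2.98 without left 11 (p = 0.0644). The slope was -2.08 in the 12 monkeys whose identifiers start with r and -4.18 in the 11 whose identifiers start with B.

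A second TET1 run, 7 positions at chr10:70375565-70375699, had a slope of 1.92 ± 0.986 (SE, n = 21), and 0.842 without left 11, its highest monkey at 37.7%. The next smallest p belonged to UHRF1 runs with slopes of -1.39 ± 0.819 (SE, n = 22) and -2.81 ± 1.85 (SE, n = 20) and to a DNMT3A run with 0.981 ± 0.752 (SE, n = 22), all at a limma adjusted p of 1. The second UHRF1 slope was -4.83 without left 11 and -1.82 without left 6. MBD1, MBD2 and MBD3 have 1 run each, and their slopes were -0.0594 ± 0.94, 0.608 ± 0.925 and -0.0535 ± 0.856 (SE, n = 22, 21 and 21). The smallest p among DNMT1 runs went with a slope of 1.87 ± 1.86 at 10265554, where left 3 and right 12 stood at 100% from 2 of 6 positions, and that among TET3 runs with -0.578 ± 0.542 at 74315008 (SE, n = 23 each). The median slope of the 30 runs was -0.355 points per score unit and that of all tested runs -0.0145.

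Age called 2 of the 231 positions with limma (0.866%), both up with age, against 0.0531% of all tested positions. Both lie in UHRF1, 41 bp apart, in the run at chr19:4963512-4963647. At 4963553 the level was 93% in left 1, the oldest monkey, 14% in the next highest and 0 in 13 of 21 monkeys. The level differed by 72.35 ± 10.9 points per year of age (SE, n = 21), with an adjusted p of 0.0145 in limma. At 4963594 left 1 stood at 57%, the next highest monkey at 12% and 13 of 21 at 0, with a slope of 42.06 ± 7.39 (SE, n = 21; limma adjusted p = 0.0275).

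Neither call was made without left 1, when the slopes were 8.61 and 0.379 (limma adjusted p = 1 for both). The other 3 tested positions within 50 bp did not pass. At 4963587, 7 bp from the second position, the slope was -32.33 ± 11.6 (SE, n = 21; limma p = 0.0103), at 4963573 it was -6.13 ± 5.89 (SE; limma p = 0.309), and at 4963603 it was 1.88 ± 9.5 (SE; limma p = 0.845). At the intervening 4963562 the level was 0 in every monkey with a value (n = 21). MBD3 at 1577994 followed in rank with -19 ± 5.56 points per year (SE, n = 21), at a limma adjusted p of 0.544, and -4.86 without left 1. An unadjusted p under 0.05 was found at 10 of 231 positions (4.33%, against 4.06% of all tested).

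Of the 30 runs 0 were called for age with limma (0.0565% of all runs were), and 0 had an unadjusted p under 0.05, against 4.81% of all tested runs. With left 3, left 5, left 6 or right 12 left out, 1 run had an unadjusted p under 0.05. The DNMT3A run at chr2:25537424-25537533 had the smallest p, with a slope of 4.46 ± 2.27 points per year (SE, n = 22; limma p = 0.0623, adjusted p = 0.999). The MBD1 run had -4.76 ± 3.17 (SE, n = 22), with -10.3 without left 1 and -3.11 without right 3, which had values at 12 of its 21 positions. The TET3 run at 74274248 had 3.07 ± 1.9 (SE, n = 22).

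**Figure D5:**
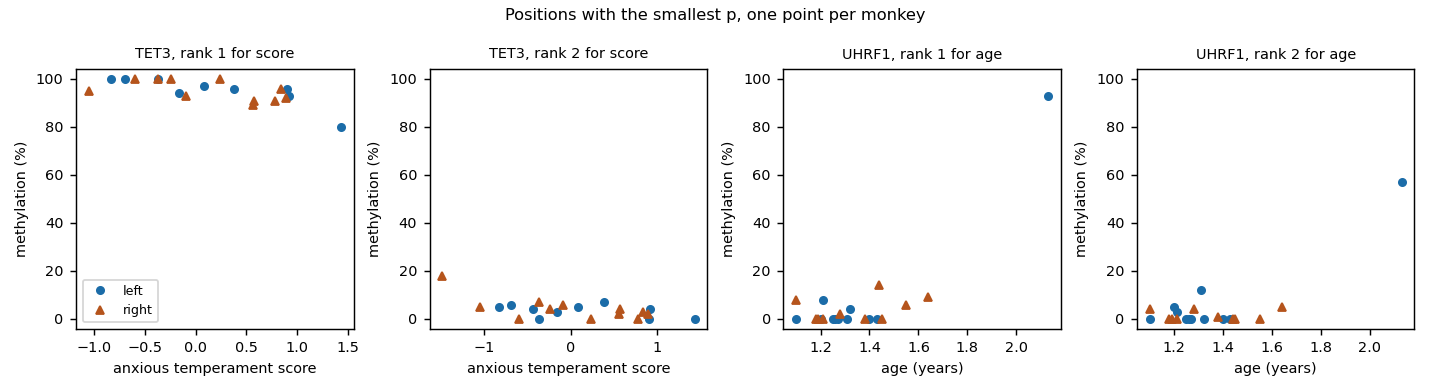
Methylation in percent in each monkey (circles left, triangles right hemisphere) at the TET3 positions with the smallest p for the temperament score (left panels, against score) and at the UHRF1 positions called for age (right panels, against age in years). In both UHRF1 panels left 1, aged 2.13 years, stands alone, at 93% and 57%.

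For right against left hemisphere, with score and age in the model, 0 of 231 positions passed with limma (0% of all tested). At an unadjusted p under 0.05 there were 10 (4.33%, against 3.48% of all tested), 6 higher in right samples and 4 lower, and 6 without left 7 or without left 9. The 3 smallest p all belonged to DNMT3A, the first and the third of them to neighbours in its run of 41 positions. At 25474433 left samples had 67% to 100% with a median of 86% and right samples 58% to 83% with a median of 65.5%. Their means were 86.7% ± 11.5 (SD, n = 10) and 68.7% ± 8.18 (SD, n = 10), and right minus left was -19.06 ± 4.52 points in the model (SE; limma adjusted p = 0.93), and the ranges overlapped. At 25474424, 9 bp away, the means were 55.7% ± 13.4 (SD, n = 10) and 36% ± 15.5 (SD, n = 10), a difference of -20.25 ± 6.61 (SE; limma adjusted p = 0.93). The adjacent bases 25474432 and 25474423, which read the other strand of these CpGs, had values in 19 monkeys and were not tested. Their means were not lower in right samples. At 25474432 left samples had 36% to 100% and right samples 43% to 100%. At 25474423 left samples had 33% to 64% and right samples 20% to 100%. At DNMT3A 25453110 right samples were the higher, at 84.83% ± 7.83 (SD, n = 12) against 72.6% ± 8.11 (SD, n = 10), a difference of 12.29 ± 3.74 (SE; limma adjusted p = 0.93).

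Of the 30 runs 0 passed for hemisphere with limma (0% of all runs). There were 2 runs with an unadjusted p under 0.05 (6.67%, against 3.12% of all tested). Left samples averaged 77.75% ± 1.96 (SD, n = 11) in the MBD2 run, and right samples 74.62% ± 2.99 (SD, n = 10). Right minus left was -3.08 ± 1.22 points in the model (SE; limma adjusted p = 0.975). The DNMT3A run at 25537424 averaged 15.05% ± 2.31 (SD, n = 11) and 12.91% ± 2.12 (SD, n = 11), a difference of -1.97 ± 0.919 (SE; limma adjusted p = 0.975). In both the ranges of left and right samples overlapped. The TET3 run of 10 positions came next with -1.88 ± 1.2 (SE, n = 21; limma adjusted p = 0.975). Only 1 run had such a p without left 1, 3, 4, 5, 6 or 7 or without right 3, 5, 6, 7, 9, 10 or 11.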

How the data were processed

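Each monkey has 1 column of methylation levels, which the authors deposited as a fraction with 2 decimals. Per the labels' protocols, genomic DNA was cut with MspI, bisulfite treated and sequenced. Bismark 0.11.1 and the human build hg19 come from the submitters' processing notes, so macaque reads carry human coordinates. Whether the macaque genome has a CpG at each of them was not tested, also where a position stood at 0 in every monkey. Coverage filters and strand handling were not stated in the labels or file headers. Fractions were multiplied by 100. No read counts are given, so depth is unknown and a coverage minimum was not tried. Missing values were left out.

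All tested positions or runs went into 1 fit with limma 3.58.1 (R 4.3.3, trend on the mean level), with score and age as terms and hemisphere added for its own test. Benjamini-Hochberg adjustment ran over all of them, 2-sided, called at 0.05. The solver was checked against limma and tested on simulated data. Levels of a gene zone per monkey were centred on the mean of each position. Adjacent bases were paired unless 3 or more followed each other. The genes, windows and tests were chosen with earlier results of these data known, and the 6 kb zone and the pair comparison after seeing the levels. Named were all genes, their longest or most variable runs, and the positions and runs of smallest p, 5 of each in the score test and 3 of each in the age and hemisphere tests. Other genes of the methylation cycle were not analysed here.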

Additional observations from a re-analysis of the deposited data

How the results depend on the processing

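The alternatives were other scales of the level, range filters, variance priors, covariates and run definitions, subsets of monkeys, and each monkey left out in turn. No paired analysis was possible because no monkey has both hemispheres and the running numbers pair no samples. For score and hemisphere, 0 positions and 0 runs of the set were called under every alternative run, and for age 0 runs. The 2 age calls in UHRF1 became 0 after a logit transform, 0 after an arcsine transform and 0 within identifier series B. Within series r and over complete positions, which leaves 76 tested, 0 positions were called, but neither UHRF1 position could enter these fits. In series r their highest levels were 8% and 5%, under the range of 10 points, and both lack values in some monkeys (n = 21). The calls became 1 with no variance trend and 1 with identifier series as a covariate. They ranged from 0 (without left 1) to 2 with single monkeys left out. Within series B, which holds left 1, the slopes were 78.62 and 46.35 points per year (limma adjusted p = 0.372 and 0.375). The alternatives were run for 22 slopes, those of smallest p in each test. A slope was absent from an alternative where its position or run missed the filters for range or missing values, which left 754 refitted slopes. Of these, 1 changed direction: the DNMT3A run at 25537424 had a slope on the score of -0.487 points within series B. The count of positions with an unadjusted p under 0.05 for the score lay between 12 and 20 when 1 monkey was left out, and was 26 of 406 with no range filter, 8 of 123 with a range of 20 points and 3 of 76 at complete positions; other numbers of positions entered these fits. For runs, that count was 0 without right 4 and 2 without left 3, right 1 or right 8. Depth is unknown, so its effect on any level could not be examined.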
